A study of Mus musculus with 12 samples.

Results

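Mouse embryonic fibroblasts (MEFs) treated with siGcn5, a small interfering RNA against the histone acetyltransferase Gcn5 (gene Kat2a), were compared with fibroblasts treated with siControl, both kept without doxycycline (dox). The comparison rests on 2 siGcn5 and 2 siControl libraries, chosen by the siRNA and treatment labels, 4 of the 12 RNA-seq libraries of the series. All of these cells were 2o 1B MEFs, fibroblasts of 1 secondary line that carry reprogramming factors under a dox switch, so the siControl cells carried the factors too. The other libraries were 2 siGcn5 and 2 siControl libraries after 2 days of dox, and 2 siMyc libraries without and 2 with dox. The labels describe pools and individual siRNAs without tying either to these libraries, and they do not say how long after transfection the cells without dox were collected. The labels do not say whether the 2 replicates of a group came from separate cultures. The p-values therefore cover the spread among libraries alone, and that spread may be technical. In bulk RNA, fewer cells of a type and less RNA per cell cannot be told apart.

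Gcn5 transfers acetyl groups to lysines of histone H3, chiefly at promoters of active genes, and works inside 2 large coactivators. SAGA joins Gcn5 and its partners in an acetyltransferase module to a deubiquitinase module, a core of TBP-associated factors and the activator-binding subunit Trrap. ATAC holds the same enzyme with other subunits and a second acetyltransferase, Csrp2bp. Kat2b (PCAF) is the close paralog of Gcn5 and can take its place in both complexes. In mouse embryos Gcn5 is needed for survival, and in stem cells it is known as a partner of Myc.

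Whole reads recovered from the values came to 123.9 M and 86.4 M in siGcn5 cells, against 134.7 M and 150.1 M in siControl cells (65.5 M to 188.1 M over all 12 libraries). Replicates of siGcn5 had a Spearman correlation of 0.994 across genes, against 0.997 for siControl. On the first principal component of the 6 libraries without dox, which held 75.0% of the variance, siGcn5 lay at 48.4 and 34.5. There siMyc (−20.8 and −21.4) and siControl (both −20.3) lay together. The second component, with 18.7%, set siMyc (22.0 and 13.6) apart from siControl (−17.3 and −18.2), with siGcn5 between them at 2.4 and −2.5. Replicate 1 of siGcn5 stood farther from siControl than replicate 2 in 6024 of the 7554 genes called below (79.8%). Values are RPKM, reads scaled to transcript length and library size, which compares levels between genes per length.

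Kat2a itself was at 1.33 and 1.97 RPKM in siGcn5 cells, against 23.0 and 20.7 RPKM in siControl cells. Both siGcn5 libraries were far below both siControl libraries, with 7.55% of the siControl mean left (log2 change −3.12, SE 0.15, adjusted p = 1.6e-06). Log2 changes throughout are of RPKM + 1, siGcn5 over siControl, and understate the change of low genes. The paralog Kat2b stood at 6.11 and 5.98 RPKM in siGcn5 cells and 3.65 and 3.61 RPKM in siControl cells, so the groups did not overlap (log2 0.61, SE 0.08, adjusted p = 0.000163). Myc, a transcription factor and itself a reprogramming factor, had 9.31 and 7.10 RPKM in siGcn5 cells and 21.7 and 17.6 RPKM in siControl cells. It fell by more than the gap between replicates (log2 −1.17, SE 0.20, adjusted p = 0.000613), and the siMyc libraries lay lower still at 4.57 and 4.80 RPKM.

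**Figure D1:**
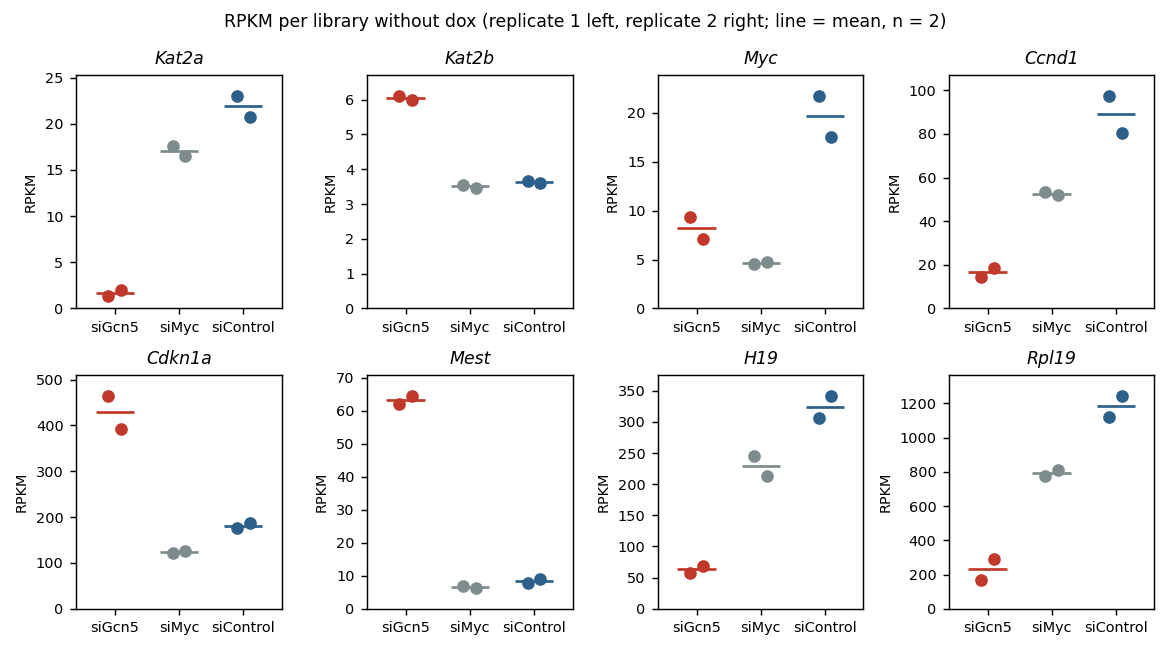
RPKM of 8 genes in each library without dox, with siGcn5, siMyc and siControl from left to right, replicate 1 on the left and a line at the mean of 2 libraries. Kat2a, Ccnd1, H19 and Rpl19 have both siGcn5 points below all others, and Kat2b, Cdkn1a and Mest have them above.

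The subunits around Gcn5 moved little. Across all genes tested, 57.3% were called at an adjusted p under 0.05, 36.9% as higher and 20.4% as lower, and the median gene was higher by 0.11 log2. Calls were repeated under 2 other scalings, median ratios of the libraries and quantile normalization. In the list of the acetyltransferase module, which also counted Tada1 of the core, 3 of 6 tested genes rose and 2 fell (median log2 0.19). Besides Kat2a, Kat2b and Tada1, the changes were those of Ccdc101 (Sgf29), a reader of methylated histone H3 (14.4 and 11.8 RPKM in siGcn5, 9.17 and 8.30 RPKM in siControl, log2 0.53), and of the adaptor Tada3 (12.8 and 11.6 RPKM in siGcn5, 16.0 and 16.6 RPKM in siControl, log2 −0.40). Tada1 was at log2 0.25, a call that ended under both other scalings and with any 1 of the 4 libraries left out (adjusted p up to 0.271). In the core with the TBP-associated factors, 3 of 15 rose and 2 fell, against 3 and 5 under either other scaling, and 1 fell with any 1 of the 4 libraries left out. That list also counted Trrap and the Atxn7 family. Trrap rose (15.1 and 13.5 RPKM in siGcn5, 9.93 and 10.0 RPKM in siControl, log2 0.48) and Taf9 fell (25.2 and 27.6 RPKM in siGcn5, 41.9 and 45.0 RPKM in siControl, log2 −0.70). The others were Atxn7l1 (log2 0.49), Fam48a (0.47) and Taf10 (−0.38), whose call ended with any 1 of the 4 libraries left out (adjusted p up to 0.139). All 4 genes of the deubiquitinase list were called higher as deposited, with a median of 0.29 log2, but 1 when libraries were scaled by median ratios and 2 after quantile normalization. That 1 was Atxn7l3b, a relative of the subunit Atxn7l3 that the list also counted (41.2 and 39.0 RPKM in siGcn5, 24.6 and 24.9 RPKM in siControl, log2 0.67). The enzyme itself, Usp22, which takes ubiquitin off histone H2B, was at log2 0.32 (adjusted p = 0.0896 with median-ratio scaling), and Eny2 and Atxn7l3 at 0.25 and 0.23. With median-ratio scaling the calls of Eny2 and Atxn7l3 ended too (adjusted p = 0.449 and 0.307). Without siGcn5 replicate 1 or siControl replicate 2, 2 of the 4 were called. Of 9 ATAC genes 3 rose and 1 fell, with Dr1, a repressor of TBP, at log2 0.51 and Yeats2, a reader of acylated histones, at log2 −0.37. Pole4 was at log2 0.37 and Csrp2bp at 0.25, the Csrp2bp call ending under both other scalings (adjusted p up to 0.226).

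A large share of the transcriptome differed by small amounts. Of 13175 genes 7554 were called, 4864 higher and 2690 lower, and 70.0% of all genes changed by less than 0.5 log2. Rises made up 64.4% of the calls as deposited, 49.3% with median-ratio scaling (3479 rises and 3580 falls) and 54.0% after quantile normalization (3775 and 3217), so the split of small changes moved with the scaling. Median-ratio scaling moved the median of all genes by more than 0.1 log2, to 0.00, and directions of lists are therefore read against the median of all genes. Counts of rises and falls in every list below stand beside 36.9% higher and 20.4% lower among all genes. Changes of at least 1 log2 were more balanced, with 459 genes higher (3.48%) and 512 lower (3.89%). Libraries of the groups did not overlap in 6805 genes with siGcn5 higher (51.7%) and 4073 with siGcn5 lower (30.9%).

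Most of the largest rises were of genes with low levels in siControl cells. Akr1c14, an aldo-keto reductase of steroid metabolism, was at 24.0 and 18.4 RPKM in siGcn5 cells, against 0.44 and 0.67 RPKM in siControl cells (log2 3.83, SE 0.17, adjusted p = 9.8e-07). Col10a1, the collagen of hypertrophic cartilage, stood at 123 and 134 RPKM in siGcn5 cells and at 8.85 and 8.91 RPKM in siControl cells (log2 3.71, SE 0.10, adjusted p = 3.5e-08). In both genes the lower siGcn5 library was more than 10-fold above the higher siControl library. Arg1, which splits arginine to ornithine and urea, reached 25.2 and 18.0 RPKM in siGcn5 cells, against 1.82 and 1.50 RPKM in siControl cells (log2 3.07). The collagenase Mmp13 had 40.6 and 38.4 RPKM in siGcn5 cells and 5.08 and 4.75 RPKM in siControl cells (log2 2.78). Some rises began from almost nothing. Il1f10, a cytokine of the interleukin 1 family, was at 8.88 and 6.35 RPKM in siGcn5 cells and 0.0552 and 0.0619 RPKM in siControl cells. Mlana, a melanosome protein, was at 9.47 and 4.27 RPKM in siGcn5 cells, while siControl replicate 1 was listed at 0 and replicate 2 at 0.0289 RPKM. Akr1c18, a progesterone-inactivating reductase, was at 9.31 and 8.98 RPKM in siGcn5 cells and 0.247 and 0.352 RPKM in siControl cells; reads shared by the near-identical Akr1c genes may have been split between them. Scel, of the cornified envelope, Got1l1, C130074G19Rik and the gene listed as 4-Sep rose by 2.49 to 2.84 log2, and Trim30a and Oas1a, both induced by interferon, by 2.78 and 2.65 log2.

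The imprinted genes Mest and H19 were among the largest changes, in opposite directions. Mest, expressed from the paternal copy, was at 62.0 and 64.4 RPKM in siGcn5 cells and 7.93 and 9.06 RPKM in siControl cells (log2 2.76, SE 0.12, adjusted p = 9.8e-07). The microRNA gene inside it, Mir335, changed by 2.69 log2. H19, a maternal noncoding RNA, was at 57.5 and 69.0 RPKM in siGcn5 cells and 306 and 342 RPKM in siControl cells (log2 −2.34, SE 0.12, adjusted p = 2.2e-06). Mir675, which lies within H19, changed by −2.34 log2. Reads of each microRNA gene and its host cannot be told apart here.

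**Figure D2:**
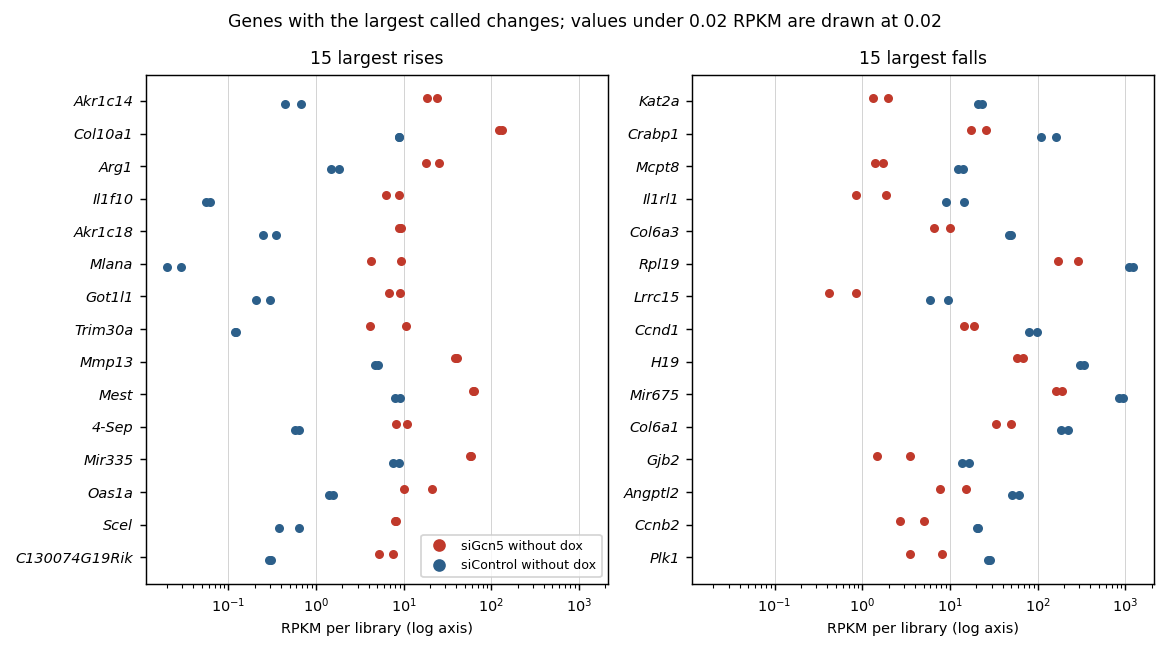
RPKM in each library without dox, on a log axis, of the 15 genes with the largest called rises and the 15 with the largest called falls; siGcn5 points are drawn above siControl points, and values under 0.02 are drawn at 0.02. The groups do not overlap in any of the 30 genes, since that was a condition for naming them.

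Among the other large falls, Ccnd1 (cyclin D1), which drives cells past the restriction point, was at 14.3 and 18.8 RPKM in siGcn5 cells, against 97.5 and 80.4 RPKM in siControl cells (log2 −2.36, SE 0.14, adjusted p = 4.4e-06). Crabp1, which binds retinoic acid in the cytoplasm, was at 17.3 and 25.5 RPKM in siGcn5 cells and 111 and 163 RPKM in siControl cells (log2 −2.62). Il1rl1, the receptor of interleukin 33, was at 0.842 and 1.85 RPKM in siGcn5 cells and 9.07 and 14.4 RPKM in siControl cells (log2 −2.44). In each of these the higher siGcn5 library lay well under the lower siControl library. Mcpt8, a mast cell and basophil protease, Lrrc15, a membrane protein of activated fibroblasts, Gjb2, a gap junction protein, and Angptl2 fell by 2.25 to 2.47 log2.

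Genes of mitosis fell without exception. All 34 tested genes of the list were lower, from −2.19 to −1.13 log2, with a median of −1.80 beside 0.11 for all genes. Their summed level was 120.1 and 208.1 RPKM in siGcn5 cells, against 662.4 and 618.9 RPKM in siControl cells. Ccnb2, a cyclin that activates Cdk1 at entry into mitosis, was at 2.67 and 5.10 RPKM in siGcn5 cells and 20.8 and 20.3 RPKM in siControl cells (log2 −2.19, SE 0.27, adjusted p = 0.00011). Plk1, a kinase of spindle assembly, was at 3.48 and 8.06 RPKM in siGcn5 cells and 28.9 and 27.1 RPKM in siControl cells (log2 −2.19, SE 0.33, adjusted p = 0.000325). The centromeric histone Cenpa (2.87 and 4.67 RPKM in siGcn5, 20.0 and 19.6 RPKM in siControl), the ubiquitin-conjugating enzyme Ube2c (10.1 and 17.7 RPKM in siGcn5, 63.5 and 57.4 RPKM in siControl) and the midzone protein Prc1 (4.55 and 9.86 RPKM in siGcn5, 32.8 and 30.8 RPKM in siControl) had like changes. In all 34 genes siGcn5 replicate 1 was lower than replicate 2, with medians of −2.08 and −1.50 log2 relative to the siControl mean, while the siControl replicates differed by a median of 0.09 log2. With siGcn5 replicate 1 left out all 34 were still called lower.

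Promoters of such late cell cycle genes are known for a short element, the cell cycle genes homology region, read here as TTTGAA on either strand, which the repressor complex DREAM uses to silence them in resting cells. In RefSeq promoter windows of 300 bases (build GRCm38.p6, from 250 bases before to 50 after the start site), TTTGAA was in 20 of the 29 mitosis genes with a window (69.0%). The same letters were in 5878 of all 32851 windows (17.9%). That is an unlike unit, since a gene counts if any of its windows holds the letters. By gene, 1442 of the 10114 tested genes with a window held them. CCAAT, a box common in these promoters, was in 24 of the 29 mitosis genes (82.8%) and in 12289 of all windows (37.4%). By gene it was in 4316 of the 10114 tested genes with a window. A match describes letters and is neither a bound site nor a cause of the change. The 5 windows printed here, 5′ to 3′ along the gene's strand, are those of the most lowered mitosis genes that hold the letters with room on both sides before the start site, with TTTGAA or its complement TTCAAA in capitals.
Ccnb2 (chr9:70421705-70421732, minus strand): agggactagaaTTTGAAaataagactgt
Ube2c (chr2:164769889-164769916, plus strand): gagggttgcaaTTCAAAcgcgggcggcg
Prc1 (chr7:80294435-80294462, plus strand): ctctggctcggTTTGAAttccgcggggt
Top2a (chr11:99024196-99024223, minus strand): ctagataaaggTTCAAAtgaaactaggg
Mki67 (chr7:135716461-135716488, minus strand): cgccgttttggTTTGAAtcgggcgggct
The letters ended 17 to 24 bases before the start site in Ube2c, Prc1 and Top2a, 92 bases before it in Mki67 and 161 bases before it in Ccnb2. Top2a, the topoisomerase that untangles chromosomes, was at 6.58 and 11.2 RPKM in siGcn5 cells and 39.1 and 33.9 RPKM in siControl cells. Mki67, the proliferation marker Ki-67, was at 1.27 and 2.37 RPKM in siGcn5 cells and 9.69 and 8.34 RPKM in siControl cells.

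DNA replication genes were lower in 32 of 35 cases and higher in none, with a median of −1.03 log2. Mcm5, a subunit of the replicative helicase, was at 4.41 and 5.76 RPKM in siGcn5 cells and 23.8 and 19.6 RPKM in siControl cells (log2 −1.90, SE 0.27). Uhrf1, which carries DNA methylation through replication, was at 3.76 and 5.74 RPKM in siGcn5 cells and 22.2 and 17.0 RPKM in siControl cells (log2 −1.85, SE 0.25). The primase Prim1, the clamp loader subunit Rfc5 and Mcm3 fell by 1.57 to 1.60 log2. The 3 genes that did not pass were Rfc3 (log2 −0.27), Rpa2 (log2 −0.39) and E2f1 (log2 0.11). Without siControl replicate 1, whose levels were above those of replicate 2 by a median of 0.21 log2 over this list, 26 of the 35 were called lower. Of the enzymes that make nucleotides and one-carbon units, 11 of 30 fell and 4 rose (median −0.16 log2). Tyms, which makes thymidylate (3.16 and 4.50 RPKM in siGcn5, 11.6 and 10.9 RPKM in siControl, log2 −1.36) and the serine enzyme Psat1 (log2 −1.14) were among the falls, and 7 were called lower without siControl replicate 1. The rises were Ctps (log2 0.62), Odc1, which starts polyamine synthesis (0.55), Psph (0.33) and Nme1 (0.29), with 2 called under median-ratio scaling and without siControl replicate 2 or siGcn5 replicate 1. Replication-dependent histone genes, whose transcripts lack poly(A) tails and could be kept by a ribosomal RNA depletion, had 5 falls and 1 rise among 10 tested, and 12 more were under the filter. Hist1h4h fell by 1.16 log2. Reads of the near-identical histone copies are uncertain, the 1 rise (Hist1h1c) was lost under both other scalings, and 3 or 4 fell with any 1 of the 4 libraries left out.

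**Figure D3:**
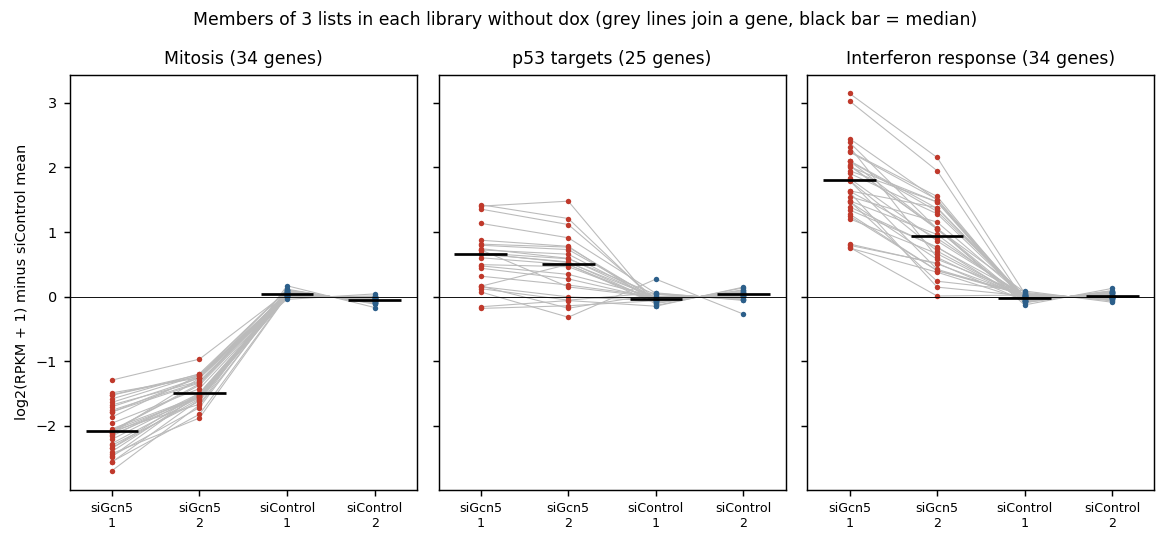
Log2(RPKM + 1) of each member minus the siControl mean, for the lists of mitosis, p53 targets and interferon response, in siGcn5 replicates 1 and 2 and siControl replicates 1 and 2 from left to right; grey lines join a gene and black bars are medians. The siGcn5 medians are −2.08 and −1.50 for mitosis and 1.80 and 0.93 for interferon response.

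Inhibitors of cyclin-dependent kinases went both ways. Cdkn1a (p21), a p53 target that stops the cell cycle, was at 464 and 393 RPKM in siGcn5 cells and 175 and 186 RPKM in siControl cells (log2 1.24, SE 0.08, adjusted p = 6.3e-06). Cdkn1c (p57) was at 16.7 and 12.9 RPKM in siGcn5 cells and 4.04 and 3.45 RPKM in siControl cells (log2 1.73), and Cdkn2b (p15), which blocks Cdk4 and Cdk6, at 77.1 and 72.1 RPKM in siGcn5 cells and 36.8 and 36.4 RPKM in siControl cells (log2 1.01). All 3 stood above siControl in both libraries. Cdkn2c (p18) fell to 1.03 and 1.55 RPKM in siGcn5 cells, against 3.67 and 3.60 RPKM in siControl cells (log2 −1.03), and Cdkn2d was at log2 −0.41. Cdkn1b (log2 −0.20) and Cdkn2a (log2 −0.19) did not pass.

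Most p53 targets rose. Of 25 tested, 18 rose and none fell, with a median of 0.55 log2, and 15 to 19 rose over the alternative settings. Trp53inp1, a nuclear cofactor of p53, was at 39.2 and 41.4 RPKM in siGcn5 cells and 12.8 and 15.7 RPKM in siControl cells (log2 1.44, SE 0.16, adjusted p = 5.9e-05). Polk, a polymerase that bypasses DNA lesions, was at 33.7 and 28.9 RPKM in siGcn5 cells and 11.2 and 12.7 RPKM in siControl cells (log2 1.32). The ribonucleotide reductase subunit Rrm2b (9.99 and 8.41 RPKM in siGcn5, 4.19 and 3.83 RPKM in siControl) and Ei24 (110.1 and 103 RPKM in siGcn5, 55.7 and 63.9 RPKM in siControl) were higher in both libraries too. Mdm2, the ligase that degrades p53, was at 142 and 136 RPKM in siGcn5 cells and 79.9 and 83.4 RPKM in siControl cells (log2 0.76). Of its cell death genes, Fas was at log2 0.63, Pmaip1 (Noxa) at 0.79 and Bax at 0.36, all called, while Bbc3, at 0.08, did not pass. Mdm2, Fas, Pmaip1, Bax and Bbc3 were named after their values were known.

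Genes induced by interferon were mostly higher, and more so in 1 library. Of 34 tested, 28 rose and none fell, with a median of 1.35 log2. Oas1a, which makes the 2-5A activator of an RNA-degrading enzyme, was at 21.1 and 10.1 RPKM in siGcn5 cells and 1.58 and 1.41 RPKM in siControl cells (log2 2.65, SE 0.39, adjusted p = 0.000287). Bst2 (tetherin), which holds budding virus at the cell surface, was at 471 and 244 RPKM in siGcn5 cells and 80.5 and 91.2 RPKM in siControl cells (log2 1.97, SE 0.33, adjusted p = 0.000658). Replicate 1 of siGcn5 was well above replicate 2 in both genes, and both stayed above siControl. Across the list, all 34 genes were higher in siGcn5 replicate 1 than in replicate 2, with medians of 1.80 and 0.93 log2 above the siControl mean. Called rises numbered 15 without siGcn5 replicate 1 and 34 without replicate 2, and 19 and 20 without siControl replicates 1 and 2. Oasl2 (log2 2.49), Xaf1 (log2 1.90) and the guanylate-binding protein Gbp3 (log2 1.87) followed. Ifit2 (log2 0.39), Ifit3 (log2 1.46) and Rsad2 (log2 1.11), named after their values were seen, did not pass. Sensors of double-stranded RNA in the list included Ifih1 (9.86 and 5.33 RPKM in siGcn5, 1.56 and 1.51 RPKM in siControl, log2 1.71) and Ddx58 (31.9 and 21.6 RPKM in siGcn5, 13.0 and 13.5 RPKM in siControl, log2 0.93), both also named after their values were seen.

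Interferon-stimulated promoters carry a response element for Stat and Irf factors, searched as GAAA, 2 free bases and GAAA again, on either strand. It was in 13 of the 27 list genes with a RefSeq window and, counted by window, in 1131 of all 32851 windows (3.44%). By gene it was in 357 of the 10114 tested genes with a window. Since 27 of 34 is under 80%, the check is void for the list and no share is given. The 5 windows shown are those of the most raised list genes that hold the letters with room on both sides before the start site, with the 10 matched bases, or their complement, in capitals (GRCm38.p6).
Oas1a (chr5:120907527-120907554, minus strand): ccttctcggGAAATGGAAActgaaaatc
Bst2 (chr8:71537578-71537605, minus strand): caggaaaatGAAACTGAAAggctgcagt
Gbp3 (chr3:142559996-142560023, plus strand): cagtttcagTTTCTATTTCccagatccc
Gbp2 (chr3:142620595-142620622, plus strand): ctcttttagTTTCACTTTCactgtctta
Ifit1 (chr19:34640795-34640822, plus strand): cagtctcagTTTCAGTTTCtcactgctg
Gbp2, a neighbour of Gbp3, was at 20.4 and 13.7 RPKM in siGcn5 cells and 4.05 and 4.59 RPKM in siControl cells (log2 1.74). Ifit1, which binds viral RNA caps, was at 20.4 and 7.46 RPKM in siGcn5 cells and 3.28 and 2.90 RPKM in siControl cells (log2 1.72). Of cytokine genes, 6 of 20 rose and 3 fell (median 0.35 log2). Those shares, 30.0% and 15.0%, were under the 36.9% and 20.4% of all genes. Without siGcn5 replicate 1 the median was 0.17 log2 and 5 rose, and of the 10 with a mean of at least 5 RPKM 1 rose. The list included the chemokine Ccl8 at 7.91 and 7.97 RPKM in siGcn5 and 1.31 and 2.58 RPKM in siControl, and the interleukin 1 receptor antagonist Il1rn at 32.6 and 43.3 RPKM in siGcn5 and 9.11 and 14.6 RPKM in siControl.

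**Figure D4:**
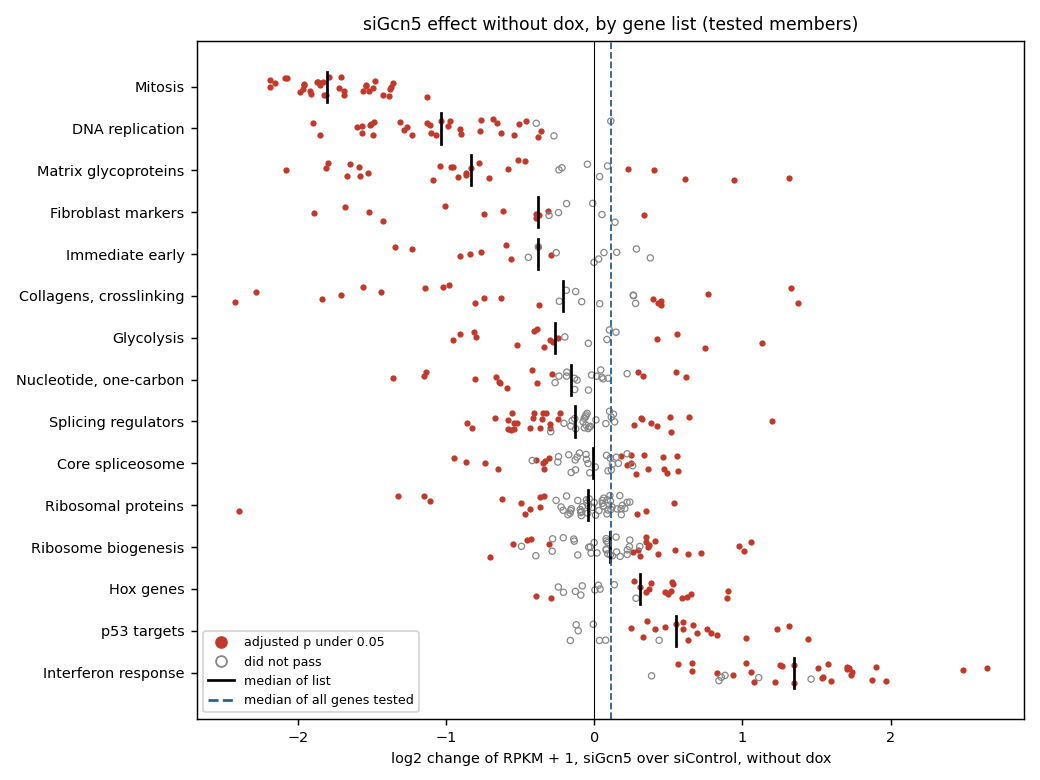
Log2 change of RPKM + 1, siGcn5 over siControl without dox, of each tested member of 15 lists; filled points passed an adjusted p under 0.05, black bars are list medians and the dashed line is the median of all genes at 0.11. Mitosis, DNA replication and matrix glycoproteins lie lowest and interferon response highest.

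Matrix genes were mostly lower. Matrix glycoproteins fell in 21 of 31 cases and rose in 5, with a median of −0.83 log2. Matn2, a filament-forming matrilin, was at 1.22 and 2.25 RPKM in siGcn5 cells and 9.87 and 10.9 RPKM in siControl cells (log2 −2.08, SE 0.15, adjusted p = 8e-06). Tnc (tenascin C) was at 73.9 and 117 RPKM in siGcn5 cells and 288 and 301 RPKM in siControl cells (log2 −1.65). Ltbp1, which stores latent TGF-beta in the matrix, was at 10.8 and 18.2 RPKM in siGcn5 cells and 52.4 and 50.5 RPKM in siControl cells (log2 −1.80). Spp1 (osteopontin) and Efemp1 fell by 1.81 and 1.67 log2. The 5 rises were Matn4 (log2 1.32), Ogn (0.94), Fbn2 (0.61), Mfap5 (0.40) and Nid2 (0.23), and 3 rises were called under either other scaling and with any 1 of the 4 libraries left out.

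Collagen genes went both ways. Of 28 genes of collagens and their crosslinking, 13 fell and 7 rose (median −0.21 log2, range −2.43 to 1.38). The hydroxylases given below were not the only rises, and neither the others nor the gene with the highest value are named here. The 3 chains of collagen VI, a beaded filament around cells, fell together, with Col6a3 at 6.65 and 10.1 RPKM in siGcn5 cells and 49.7 and 47.5 RPKM in siControl cells (log2 −2.43, SE 0.15, adjusted p = 4.6e-06). Col6a1 was at 33.6 and 49.8 RPKM in siGcn5 cells and 184 and 225 RPKM in siControl cells (log2 −2.28), and Col6a2 at 30.1 and 35.2 RPKM in siGcn5 cells and 105 and 135 RPKM in siControl cells (log2 −1.84). Of the 5 crosslinking oxidases in the list, Loxl1 (log2 −1.44), Loxl2 (−1.14), Loxl3 (−0.98) and Lox (−0.63) fell and Loxl4 (0.28) did not pass. Of the 5 hydroxylases, which modify collagen chains in the endoplasmic reticulum, Plod2 (1.33), P4ha2 (0.76), P4ha1 (0.45) and P4ha3 (0.43) rose and Plod1 (0.26) did not pass. Chains of the main fibrillar collagen, collagen I, did not move far, with Col1a1 at log2 −0.24 without passing and Col1a2 at −0.31. Another fibrillar chain, Col3a1, fell by 1.01 log2 (adjusted p = 9.99e-05). The oxidases, the hydroxylases and the collagen I chains were named after their values were seen.

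Fibroblast markers were still high in siGcn5 cells. Their summed level was 10895 and 11485 RPKM in siGcn5 cells and 15101 and 15118 RPKM in siControl cells, none was listed at 0, and Vim (vimentin) was at 1980.0 and 2126 RPKM in siGcn5 cells and 2692 and 2693 RPKM in siControl cells. Of 18 markers 11 fell and 1 rose (median −0.38 log2). S100a4, a calcium-binding protein of motile fibroblasts, was at 302 and 388 RPKM in siGcn5 cells and 1159 and 1046 RPKM in siControl cells (log2 −1.68, SE 0.12, adjusted p = 6.3e-06). Thy1, a surface glycoprotein, was at 75.7 and 99.98 RPKM in siGcn5 cells and 225 and 283 RPKM in siControl cells (log2 −1.52), and Fbln1 and Fbln2 fell by 1.89 and 1.43 log2. The rise was that of Twist1, a mesenchymal transcription factor (log2 0.33), and it was not called under either other scaling or without siGcn5 replicate 1 or either siControl library.

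Proteases of the matrix and their inhibitors fell in 11 of 25 cases and rose in 5. Timp2, an inhibitor of metalloproteinases, was at 105 and 133 RPKM in siGcn5 cells and 325 and 349.6 RPKM in siControl cells (log2 −1.50), and Timp1 at 217 and 282 RPKM in siGcn5 cells and 583 and 607 RPKM in siControl cells (log2 −1.26). Mmp3 (stromelysin) was at 0.00896 and 0.0129 RPKM in siGcn5 cells and 1.18 and 1.54 RPKM in siControl cells, against the rise of Mmp13 given above. The other rises were Adamts1 (log2 1.16), Mmp11 (0.53), Adamts4 (0.52) and Ctsl (0.26). Growth factor genes had 18 falls and 10 rises among 37 (median −0.21 log2, but 0.09 among members with a mean of at least 5 RPKM). Fgf7, a growth factor that fibroblasts make for epithelium, was at 4.91 and 8.17 RPKM in siGcn5 cells and 22.3 and 26.3 RPKM in siControl cells (log2 −1.78). Tgfb1 was at 5.93 and 9.55 RPKM in siGcn5 cells and 24.0 and 27.1 RPKM in siControl cells (log2 −1.63). Igfbp7 and Igfbp3, both binders of insulin-like growth factors, went opposite ways at −1.56 and 1.47 log2. Of Wnt genes 8 of 25 rose and 10 fell, and falls numbered 4 without siGcn5 replicate 1 and 5 and 6 without siControl replicates 1 and 2. As deposited, 32.0% of Wnt genes rose and 40.0% fell, beside 36.9% and 20.4% of all genes. Rspo3, which amplifies Wnt signals, was at 11.5 and 10.4 RPKM in siGcn5 cells and 2.54 and 2.96 RPKM in siControl cells (log2 1.67), and the inhibitors Dkk2 and Dkk3 fell by 1.57 and 1.55 log2. Of immediate early genes 9 of 18 fell and none rose (median −0.38 log2). Fosl1, a partner of Jun, was at 7.48 and 7.34 RPKM in siGcn5 cells and 19.8 and 17.7 RPKM in siControl cells (log2 −1.23). Egr1 was at 4.04 and 6.76 RPKM in siGcn5 cells and 14.0 and 15.9 RPKM in siControl cells (log2 −1.35), a call that ended without siGcn5 replicate 1 (adjusted p = 0.0668).

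Genes of the cytoskeleton and of the Yap response went both ways, 4 up and 4 down of 21. Each is 19.05% of the list, beside 36.9% higher and 20.4% lower among all genes. Myh10 (nonmuscle myosin IIB) was at 15.5 and 35.9 RPKM in siGcn5 cells and 96.6 and 101 RPKM in siControl cells (log2 −2.02, SE 0.35, adjusted p = 0.00081). Myh11 (smooth muscle myosin) was at 46.5 and 30.7 RPKM in siGcn5 cells and 11.2 and 9.31 RPKM in siControl cells (log2 1.79, SE 0.21, adjusted p = 8e-05). The 2 myosins thus moved in opposite directions in both libraries. Among the Yap targets, Amotl2 (log2 0.76) and Ankrd1 (0.77) rose and Cyr61 (−0.51) fell. Among the cytoskeleton genes, Des (0.58) also rose, and Cnn1 (−0.80) and Flna (−0.29) fell. The calls of Ankrd1 and Des ended without siControl replicate 2 (adjusted p = 0.168 and 0.0569) or siGcn5 replicate 1, and 2 falls were called without siControl replicate 1 and 9 under median-ratio scaling.

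As deposited, most ribosomal protein genes lay a little under the median of all genes, with 12 of 57 above it, and 5 were called lower by more than 0.5 log2. The shares called were 5.26% higher and 19.3% lower, beside 36.9% and 20.4% of all genes. Of 57 tested, 11 fell, 3 rose and 43 did not pass (median −0.04 log2), against 17 falls and 1 rise under median-ratio scaling. After quantile normalization 8 fell and 13 rose and the median was 0.03 log2, and 7 fell without siGcn5 replicate 1. Rpl19 was at 169.8 and 292 RPKM in siGcn5 cells and 1120.5 and 1242 RPKM in siControl cells (log2 −2.40, SE 0.27, adjusted p = 6.4e-05). Rpl3 was at 316 and 413 RPKM in siGcn5 cells and 877 and 938 RPKM in siControl cells (log2 −1.33), and Rpl5 and Rpl10a fell by 1.15 and 1.11 log2. Rpl12 was at −0.62 log2, and every other fall was smaller than 0.5 log2. The rises were Rps27 (log2 0.54), Rpl22 (0.35) and Rps19 (0.29). Ribosomal protein genes have many near-identical pseudogenes, so reads may have been split or dropped in counting. Among ribosome biogenesis genes 15 of 49 rose and 5 fell (8 and 6 under median-ratio scaling, 9 and 2 without siGcn5 replicate 1, 11 and 2 without siControl replicate 1). Both shares, 30.6% higher and 10.2% lower, were under those of all genes (36.9% and 20.4%), and the list median of 0.11 log2 was that of all genes. Rrp9, of the U3 particle, was at 88.6 and 65.8 RPKM in siGcn5 cells and 38.7 and 33.8 RPKM in siControl cells (log2 1.06). Rrp12 and Imp4 rose by 1.01 and 0.97 log2, and Lyar fell by 0.71 log2, a call that not every alternative kept.

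Splicing regulators fell in 21 of 52 cases and rose in 9 (median −0.13 log2). Hnrnpa1, which binds splicing silencers, was at 138 and 167 RPKM in siGcn5 cells and 274 and 279.6 RPKM in siControl cells (log2 −0.86, SE 0.14, adjusted p = 0.000515). Srsf7, a serine-arginine-rich splicing factor, was at 25.0 and 26.3 RPKM in siGcn5 cells and 43.7 and 39.4 RPKM in siControl cells (log2 −0.67). Rbm38, an RNA-binding protein that p53 induces, was at 18.4 and 13.0 RPKM in siGcn5 cells and 5.86 and 6.55 RPKM in siControl cells (log2 1.20, SE 0.14, adjusted p = 7.4e-05). Mbnl1, which promotes splicing patterns of differentiated cells, rose by 0.64 log2. In the core spliceosome 12 of 44 rose and 9 fell, against 5 and 16 under median-ratio scaling, 7 and 16 after quantile normalization, and 8 and 6 without siGcn5 replicate 1. Lsm2 was at 10.6 and 14.7 RPKM in siGcn5 cells and 24.8 and 25.1 RPKM in siControl cells (log2 −0.94), and Prpf6, of the tri-snRNP, at 45.9 and 44.3 RPKM in siGcn5 cells and 28.5 and 31.8 RPKM in siControl cells (log2 0.57).

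Glycolysis genes fell in 11 of 20 cases and rose in 4 (median −0.26 log2). Pgk1, which makes ATP in the pathway, was at 210.3 and 259 RPKM in siGcn5 cells and 446 and 459 RPKM in siControl cells (log2 −0.95, SE 0.12), and pyruvate kinase Pkm2 at 503 and 545 RPKM in siGcn5 cells and 942 and 885 RPKM in siControl cells (log2 −0.80, SE 0.09). The rises were Aldoc, an aldolase of low level here (2.46 and 3.01 RPKM in siGcn5, 0.611 and 0.791 RPKM in siControl), the hexokinase Hk2 (log2 0.74), Pfkfb3 (0.56) and Pdk1 (0.42), which holds pyruvate back from mitochondria. Respiratory chain genes rose in 18 of 36 cases and fell in 3, but 10 rose and 6 fell under median-ratio scaling. Sdhb, of complex II, fell by 0.87 log2, and Atp5c1 (log2 −0.37) and Atp5o (−0.20) were the other falls.

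Of lysosome and autophagy genes 12 of 26 rose and 5 fell (2 or 3 fell with any 1 of the 4 libraries left out). Sqstm1 (p62), an autophagy receptor, was at 411 and 364 RPKM in siGcn5 cells and 175 and 197 RPKM in siControl cells (log2 1.05), and Hexa, which degrades gangliosides, at 263 and 226 RPKM in siGcn5 cells and 104 and 108 RPKM in siControl cells (log2 1.20). Among the falls were Ctsb (log2 −0.84), Map1lc3a (−0.63), Ctsd (−0.23) and Gusb (−0.23). In oxidative stress genes 9 of 18 rose and 5 fell (3 fell without siGcn5 replicate 1). The metallothionein Mt2 was at 229 and 287 RPKM in siGcn5 cells and 54.0 and 95.1 RPKM in siControl cells, and Nqo1, a target of Nrf2, at 8.96 and 15.3 RPKM in siGcn5 cells and 30.0 and 40.9 RPKM in siControl cells. Among genes of the integrated stress response and the endoplasmic reticulum 7 of 19 rose and 6 fell (4 rose under either other scaling or without siControl replicate 1 or siGcn5 replicate 1, and 3 fell without siGcn5 replicate 2). Calr (calreticulin), a chaperone that holds calcium, was at 241 and 308 RPKM in siGcn5 cells and 883 and 803 RPKM in siControl cells (log2 −1.63, SE 0.15, adjusted p = 2.1e-05). Dnajb9 (log2 0.80) and Ddit3 (0.68), both induced by unfolded proteins, rose while the chaperones Hsp90b1 (−0.71) and Hspa5 (−0.48) fell. Heat shock genes rose in 6 of 14 cases, and Hspd1 fell (log2 −0.75; 4 falls under median-ratio scaling), with the lens chaperone Cryab at 150.0 and 139.8 RPKM in siGcn5 cells and 76.6 and 78.8 RPKM in siControl cells. Cholesterol synthesis genes had 2 rises, Insig1 among them (log2 0.82), and 4 falls among 22. The falls numbered 8 under either other scaling, 7 without siGcn5 replicate 2, and 0 without siControl replicate 2 or siGcn5 replicate 1.

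Of the other histone acetyltransferases, 3 of 10 rose and 2 fell, near the 36.9% and 20.4% of all genes. Hat1, which acetylates new histone H4, was at 15.3 and 16.3 RPKM in siGcn5 cells and 27.8 and 25.6 RPKM in siControl cells (log2 −0.72), and Myst2, Ncoa1 and Ep300 rose by 0.46, 0.42 and 0.34 log2. The call of Ep300 ended under both other scalings (adjusted p = 0.0884 and 0.0678), and that of Kat5 (log2 −0.29), the other fall, without siControl replicate 2 or either siGcn5 library (adjusted p up to 0.171). Deacetylases rose in 9 of 16 cases and fell in 3 (Hdac3, Hdac10 and Hdac2, at −0.46 to −0.35 log2). Median-ratio scaling gave 5 of each, and rises numbered 3 without siGcn5 replicate 1 and 4 without siControl replicate 2. Sirt7, which removes acetyl groups from histone H3 in the nucleolus and at promoters, was at 32.3 and 27.1 RPKM in siGcn5 cells and 12.4 and 13.5 RPKM in siControl cells (log2 1.13, SE 0.13, adjusted p = 6.2e-05). In the Myc network 5 of 12 genes rose and 3 fell (3 rose without siGcn5 replicate 1 or either siControl library). The partner Max was at 43.0 and 42.0 RPKM in siGcn5 cells and 26.7 and 28.0 RPKM in siControl cells (log2 0.62), and its relatives Mlx and Mlxip rose by 0.61 and 0.59 log2, while the antagonist Mxi1 fell by 0.72 log2. Hox genes, which hold positional identity in fibroblasts, rose in 15 of 27 cases and fell in 2 (median 0.31 log2), with 9 rises without siGcn5 replicate 1, 10 without siControl replicate 2, and 11 rises and 5 falls under median-ratio scaling. The falls were Hoxb9 (log2 −0.39) and Hoxb8 (−0.30). Hoxc6 was at 36.9 and 35.5 RPKM in siGcn5 cells and 19.1 and 18.6 RPKM in siControl cells (log2 0.91), and Hoxa9 at 5.70 and 4.58 RPKM in siGcn5 cells and 2.56 and 2.04 RPKM in siControl cells (log2 0.89).

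Levels of the reprogramming factors without dox were low or moderate, and RPKM does not separate introduced from endogenous copies. Pou5f1 (Oct4) was at 2.53 and 2.58 RPKM in siGcn5 cells and 1.30 and 0.942 RPKM in siControl cells (log2 0.75, SE 0.17, adjusted p = 0.0034). Klf4 was at 7.79 and 6.89 RPKM in siGcn5 cells and 11.7 and 12.4 RPKM in siControl cells (log2 −0.65, SE 0.15, adjusted p = 0.00449). Sox2 was at 0.581 and 0.349 RPKM in siGcn5 cells and 0.296 and 0.339 RPKM in siControl cells and did not pass (log2 0.15, adjusted p = 0.596). Pluripotency markers were near absent, with 15 of 20 under 1 RPKM in all 4 libraries, and Nanog, which was under the filter and not tested, at 1.02 and 0.726 RPKM in siGcn5 cells and 0.186 and 0.162 RPKM in siControl cells.

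Epithelial markers were mostly off, with 19 of 24 under 1 RPKM in all 4 libraries and Cdh1 (E-cadherin) at 0.0146 and 0.0236 RPKM in siGcn5 cells and 0.00673 and 0.0106 RPKM in siControl cells. Against that, keratins of simple epithelium were higher. Krt18 was at 36.7 and 31.6 RPKM in siGcn5 cells and 5.73 and 6.74 RPKM in siControl cells (log2 2.28, SE 0.14, adjusted p = 4.4e-06), its partner Krt8 at 4.41 and 4.51 RPKM in siGcn5 cells and 0.695 and 0.653 RPKM in siControl cells (log2 1.71), and Krt7 at 26.0 and 18.95 RPKM in siGcn5 cells and 7.12 and 6.21 RPKM in siControl cells (log2 1.60). The list's sum was 81.6 and 67.2 RPKM in siGcn5 cells and 29.2 and 25.2 RPKM in siControl cells, and 7 of 17 tested members rose and 1 fell (4 rose without siGcn5 replicate 1). Dsp (desmoplakin), of desmosomes, was at log2 0.98, while Epcam (log2 0.00) did not pass.

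Markers of other cell types that a fibroblast culture could hold were mostly low. Blood and macrophage markers summed to 7.14 and 8.24 RPKM in siGcn5 cells and 7.27 and 7.96 RPKM in siControl cells, with 14 of 17 under 1 RPKM in all 4 libraries and Ptprc (CD45) at 0.0741 and 0.141 RPKM in siGcn5 cells and 0.118 and 0.0859 RPKM in siControl cells. Endothelial markers summed to 27.5 and 26.7 RPKM in siGcn5 cells and 34.4 and 32.7 RPKM in siControl cells, with 9 of 15 under 1 RPKM in all 4 libraries. In that list 4 of 8 fell, led by Egfl7 and Flt1 at −1.04 log2 each (2 fell without siControl replicate 1), and Pecam1 was at 0.198 and 0.112 RPKM in siGcn5 cells and 0.0225 and 0.0887 RPKM in siControl cells. Neural markers summed to 54.4 and 62.5 RPKM in siGcn5 cells and 105.5 and 103.6 RPKM in siControl cells, with 11 of 15 under 1 RPKM in all 4 libraries. Nes (nestin), an intermediate filament that other dividing cells also make, was at 8.77 and 12.2 RPKM in siGcn5 cells and 36.5 and 34.3 RPKM in siControl cells (log2 −1.68), and Tubb3, a neuronal tubulin, at 14.9 and 13.9 RPKM in siGcn5 cells and 22.4 and 21.4 RPKM in siControl cells (log2 −0.57). Stmn2, which held the largest share of the neural sum, was at 28.2 and 34.2 RPKM in siGcn5 cells and 44.3 and 45.7 RPKM in siControl cells, and it did not pass with siControl replicate 2 or siGcn5 replicate 1 left out (adjusted p = 0.063 and 0.11). Muscle markers summed to 140.8 and 121.4 RPKM in siGcn5 cells and 128.5 and 102.2 RPKM in siControl cells, with 12 of 16 under 1 RPKM in all 4 libraries, Tnnc1 (log2 0.79) and Des higher among 6 tested, and Myod1 at 0 and 0.0375 RPKM in siGcn5 cells and 0 and 0.00359 RPKM in siControl cells. Pparg, the regulator of fat cell formation, was at 16.2 and 15.3 RPKM in siGcn5 cells and 5.78 and 4.64 RPKM in siControl cells (log2 1.44), and the fatty acid carrier Fabp4 at 17.8 and 27.0 RPKM in siGcn5 cells and 10.7 and 8.30 RPKM in siControl cells (log2 1.13). Those were the 2 rises among 4 tested adipocyte markers, and 3 of that list's 12 members were listed at 0 in all 4 libraries. Of bone and cartilage markers 4 of 10 rose and 2 fell, near the 36.9% and 20.4% of all genes. The hormone receptor Pth1r was at 8.48 and 6.13 RPKM in siGcn5 and 1.95 and 1.90 RPKM in siControl. The cartilage proteoglycan Acan was at 0.253 and 0.449 RPKM in siGcn5 and 2.16 and 2.10 RPKM in siControl. The part of cell mixture in the changes above was not tested.

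The siMyc libraries without dox hold a second knockdown in the same cells. Set directly against siMyc, siGcn5 differed in 7737 of 13175 genes (58.7%), 4815 higher (36.5%) and 2922 lower (22.2%). All 34 mitosis genes were lower in siGcn5 than in siMyc (median −1.36 log2) and 28 of 35 DNA replication genes were lower. Of 25 p53 targets 21 were higher in siGcn5 (median 0.74 log2), and Cdkn1a was at 464 and 393 RPKM in siGcn5 cells and 122 and 126 RPKM in siMyc cells (log2 1.77, adjusted p = 1.8e-06). Of 34 interferon genes 14 were higher in siGcn5, near the 36.5% of all genes, and none lower (median 0.80 log2). Genes for making ribosomes also separated the knockdowns, with 42 of 49 ribosome biogenesis genes and 48 of 57 ribosomal protein genes higher in siGcn5 than in siMyc, and 0 and 1 lower. Imp4, of the U3 particle, was at 41.3 and 36.4 RPKM in siGcn5 cells and 18.3 and 16.4 RPKM in siMyc cells (log2 1.12, adjusted p = 7.3e-06). Col10a1 was at 123 and 134 RPKM in siGcn5 cells and 6.28 and 6.74 RPKM in siMyc cells, and Mest at 62.0 and 64.4 RPKM in siGcn5 cells and 6.80 and 6.42 RPKM in siMyc cells. Efemp1, a matrix fibulin, was at 17.9 and 18.3 RPKM in siGcn5 cells, 122 and 93.5 RPKM in siMyc cells and 62.8 and 57.1 RPKM in siControl cells, so siGcn5 was lowest and siMyc highest.

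Against the same siControl libraries, siMyc changed 3098 genes (23.5%), 12.8% of all genes as higher and 10.7% as lower, a comparison that shares its controls with that of siGcn5, so its values are only set beside it. By list, siMyc had no mitosis gene called (median −0.29 log2), 3 falls among 35 DNA replication genes, 13 falls and no rise among 25 p53 targets, and 4 rises among 34 interferon genes. The counts for DNA replication and interferon genes are near those shares of all genes. Their medians under siMyc were −0.21 and 0.55 log2, beside 0.02 for all genes, so the interferon list as a whole lay higher there too. Under siMyc 56 of 57 ribosomal protein genes and 37 of 49 ribosome biogenesis genes were lower than in siControl and none higher (medians −0.68 and −0.55 log2), beside medians of −0.04 and 0.11 log2 for siGcn5 over siControl. The siMyc count was 1072 without siMyc replicate 1, and 1272 and 1387 without siControl replicates 1 and 2.

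With dox the factors were on, and the siGcn5 effect was measured against siControl with dox in 4 other libraries. There 7412 genes were called (56.3%), 31.4% of all genes as higher and 24.9% as lower. The difference between the effects, without dox minus with dox, passed in 3409 genes (25.9%), 1909 in which the effect was higher without dox (14.5%) and 1500 in which it was lower (11.4%). That count was 1677 to 2232 without either siControl library without dox, siControl replicate 2 with dox or replicate 1 of siGcn5 in either condition. Kat2a was down in both conditions, at log2 −3.12 without dox and −2.69 with dox (difference −0.42, adjusted p = 0.162).

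Mitosis and interferon genes moved the same way with dox, while most matrix genes had another effect there. All 34 mitosis genes fell with dox (median −1.51 log2) and none passed the test of the difference, nor did any of the 34 interferon genes, of which 27 rose with dox (median 1.54 log2). Among matrix glycoproteins 25 of 31 had a lower effect without dox than with dox and none a higher one, and the list had 15 rises and 5 falls with dox. Collagen genes differed in 21 of 28 cases, all lower without dox, and fibroblast markers in 14 of 18. Col6a1 was at 84.8 and 82.7 RPKM in siGcn5 cells with dox, against 99.0 and 91.3 RPKM in siControl cells with dox (log2 −0.18), beside a log2 change of −2.28 without dox (difference −2.10, SE 0.23, adjusted p = 0.00138). For Mest the order turned, with 29.1 and 39.5 RPKM in siGcn5 cells with dox and 48.1 and 47.9 RPKM in siControl cells with dox (log2 −0.49 with dox, 2.76 without; difference 3.25, SE 0.17, adjusted p = 1.3e-05). Ribosome biogenesis genes had a higher effect without dox in 23 of 49 cases and a lower one in none, and core spliceosome genes in 21 of 44 and none. Of the contractile and Yap list 17 of 21 were lower without dox than with dox.

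**Figure D5:**
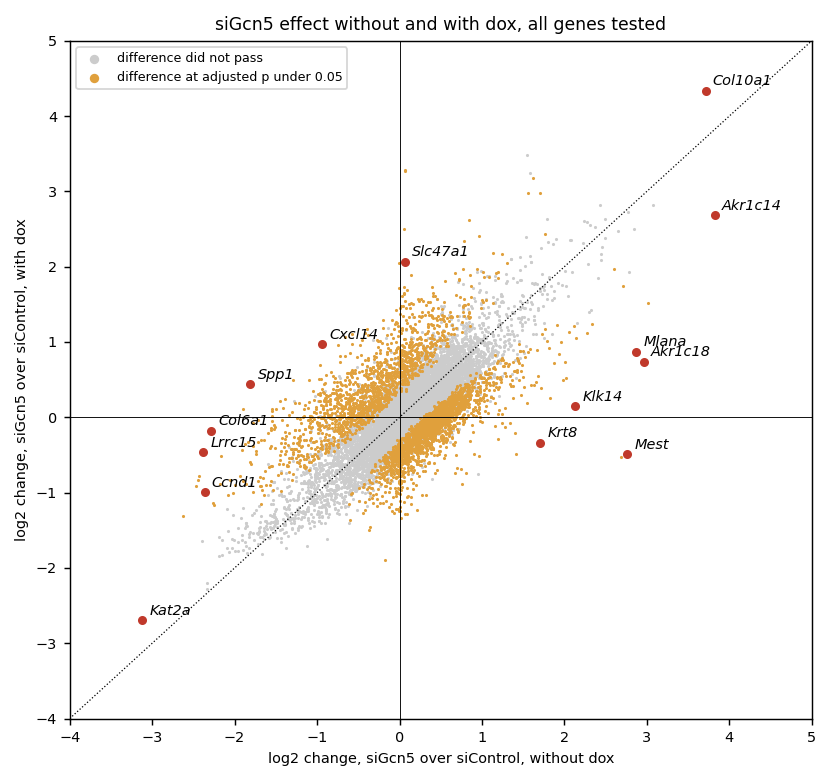
Log2 change of RPKM + 1, siGcn5 over siControl, without dox (horizontal axis) and with dox (vertical axis) for 13175 genes; coloured points passed the test of the difference, and the dotted line marks equal effects. Kat2a lies near the dotted line, at −3.12 and −2.69, while Mest, at 2.76 and −0.49, and Col6a1, at −2.28 and −0.18, lie far from it.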

How the data were processed

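RNA was measured by sequencing of ribosome-depleted total RNA, with a stranded kit per the labels' protocols. RPKM per gene were deposited by the authors for 23284 symbols; the submitters' processing notes name TopHat2 2.0.9, Bowtie 0.12.8, HTSeq and edgeR and the mouse build mm9, without roles, and how strand was counted is not given in the sources used here. Of the 23284 symbols, 20788 had reads, and in all of them the values were whole multiples of 1 read (tolerance 0.05), so reads could be recovered (exact for 97.0% of 20744 genes in simulated data); 2496 were at 0 in every library.

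From the RPKM, log2(RPKM + 1) of the 13175 genes with at least 1 RPKM in at least 2 of 12 libraries was fitted in limma 3.58.1 (R 4.3.3), with trend, 6 groups and 1 term per group, so that all groups share the spread (6 residual degrees of freedom). Every adjusted p is limma's, with Benjamini-Hochberg adjustment over 13175 genes and a threshold of 0.05. The fit was tried on normal values drawn on the log2(RPKM + 1) scale, not on counts, with a spread smoothed over genes of like level. There 100 genes were changed by 1 log2 and 100 by 0.5 log2, of which 100% and 54.0% were recovered, with 6 false calls. With so few genes changed the adjusted threshold is stricter than in the data, where 57.3% were called. These shares therefore do not give the power of the comparison.

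Named genes were Kat2a, Kat2b and the 4 reprogramming factors, the 15 largest called rises and falls with a mean of at least 2 RPKM and no overlap, the 5 largest called members of each list, all called SAGA, ATAC and Myc network members, and the 8 largest each way in the other comparisons. A few genes that this rule takes are not reported here. Members named beside counts of 5 or fewer, members that did not pass, and genes printed for their promoters were chosen after their values were seen. The members and lists were chosen with earlier results of these data known. Of 1025 list members, 1022 were found and 922 tested. Alternatives were a pseudocount of 0.1, no filter, a mean of at least 5 RPKM, median-ratio scaling, quantile normalization, a replicate block, only the 4 libraries compared, voom on the recovered reads, and each library left out. Promoter windows are from RefSeq (GRCm38.p6), another build than that of the values, matched by symbol.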

Additional observations from a re-analysis of the deposited data

Results flagged for a closer look

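The siGcn5 effect on 3409 of 13175 genes differed between cells without and with dox by the interaction term of the limma fit; why it differed was not tested. Values that follow are the difference, without dox minus with dox, on the log2(RPKM + 1) scale, each at an adjusted p under 0.05. Kat2a was at −3.12 without dox and −2.69 with dox (difference −0.42, adjusted p = 0.162).

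Among genes raised without dox, Mest had a difference of 3.25 and its overlapping microRNA gene Mir335 one of 3.22. The aldo-keto reductase Akr1c18 had a difference of 2.23 and Akr1c14 one of 1.14, with log2 changes of 3.83 without dox and 2.69 with dox. The keratin Krt8 had a difference of 2.04, Mlana 2.00, Il1f10 1.49, the gene listed as 4-Sep 0.97 and Scel 0.63. Other large positive differences were those of Klk14 at 1.98, Htra3 at 1.89 and Aim1 at 1.64. Col10a1 went the other way, with a difference of −0.62 (log2 3.71 without dox, 4.34 with dox).

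Among genes lowered without dox, the differences were −2.25 for Spp1, −2.10 for Col6a1, −1.92 for Lrrc15, −1.91 for Cxcl14, −1.65 for Col6a3, −1.61 for Il1rl1, −1.56 for Mcpt8, −1.37 for Ccnd1, −1.31 for Crabp1, −1.13 for Gjb2 and −1.09 for Angptl2. Ccnd1 was at 14.3 and 18.8 RPKM in siGcn5 cells and 97.5 and 80.4 RPKM in siControl cells without dox, and at 71.7 and 88.6 RPKM in siGcn5 cells and 165 and 155 RPKM in siControl cells with dox. Other negative differences were those of 4933402E13Rik at −2.44, Slc47a1 at −2.00, Mgp at −2.00 and Gm2115 at −1.79. Slc47a1, a transporter of organic cations, was at 0.049 and 0.0396 RPKM in siGcn5 cells and listed at 0 in both siControl libraries without dox, and at 6.47 and 5.00 RPKM in siGcn5 cells and 0.633 and 0.566 RPKM in siControl cells with dox. Its difference turned positive under voom, as given with the alternatives. The call of Mgp, an inhibitor of calcification, was lost under 6 alternatives, and that of 4933402E13Rik under voom (adjusted p = 0.22).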

How the results depend on the processing

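The number of genes called between siGcn5 and siControl without dox was 7554, ranged from 5444 (only genes with a mean of at least 5 RPKM) to 8489 (replicate block) over the alternatives, and was 5490 to 7811 with 1 library left out. The 5444 calls were among 8748 genes tested, while the 7554 and 8489 calls were among 13175, so these counts are not of like sets. Of 241 named genes, 237 were called, 204 of these under every alternative, and none reversed. The difference between the effects without and with dox was called in 1677 to 3960 genes with 1 library left out (3409 as reported), and siMyc against siControl in 1072 to 3481 (3098 as reported). The interaction of Slc47a1 was 1.88 with voom on recovered reads (adjusted p = 0.125), against −2.00 as reported, so its sign turned with that setting, in a gene listed at 0 in both siControl libraries without dox; the cause was not tested. The labels do not say that a replicate number marks a shared culture or day, and 2 numbers per group are too few to decide it from the values. Deviations of same-numbered libraries correlated by 0.093 to 0.489 (0.269 for siGcn5 with siControl without dox), and blocking on the numbers gave 8489 calls here, 5061 for the interaction and 4440 for siMyc. With 2 libraries per group small changes can be missed, but how many were missed here was not measured. Called changes smaller than 0.5 log2 numbered 2496 rises and 1161 falls. The siGcn5 libraries hold fewer reads than the siControl libraries.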

Other observations

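Families picked after their values were seen, and so given as a description with no test of the family, were imprinted genes, aldo-keto reductases and genes of the G1 phase. Of 25 imprinted genes 10 rose and 4 fell (median 0.29 log2 beside 0.11 for all genes). Those counts are near the shares of all genes, 36.9% higher and 20.4% lower. Plagl1, a paternally expressed zinc finger factor, was at 55.2 and 39.5 RPKM in siGcn5 cells and 10.8 and 10.3 RPKM in siControl cells (log2 2.05), and Peg10, derived from a retrotransposon, at 40.0 and 39.0 RPKM in siGcn5 cells and 10.9 and 11.6 RPKM in siControl cells (log2 1.73). Igf2, the paternal neighbour of H19, fell with it, to 78.8 and 75.6 RPKM in siGcn5 cells, against 178 and 182 RPKM in siControl cells (log2 −1.21). The levels do not tell which parental copy was expressed.

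Of 9 aldo-keto reductases 5 rose and none fell, beside 36.9% and 20.4% of all genes. Akr1c13 was at 3.04 and 2.07 RPKM in siGcn5 cells and 0.494 and 0.6 RPKM in siControl cells, and Akr1a1, which reduces aldehydes in most tissues, at 515 and 517 RPKM in siGcn5 cells and 415 and 446 RPKM in siControl cells.

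Of 16 G1 genes 6 fell and 3 rose, beside 20.4% and 36.9% of all genes. Ccnd2 was at 58.3 and 68.5 RPKM in siGcn5 cells and 161 and 143 RPKM in siControl cells (log2 −1.25). Rb1, the retinoblastoma protein that holds E2f factors in check, was at 21.8 and 19.4 RPKM in siGcn5 cells and 7.46 and 6.93 RPKM in siControl cells (log2 1.40).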
